A study of Rattus norvegicus with 18 samples.

Results

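The proteasome genes were described in rat liver across a normal control, an untreated obese control and 4 treated obese groups. They were taken as the protein-coding genes whose symbol starts with Psma, Psmb, Psmc, Psmd or Psme followed by a digit, which gave 44 of the 33657 genes in the deposited table (44 of 22250 protein-coding genes). One match, Psmc3ip, encodes a meiotic recombination factor and not a proteasome subunit. It was kept in the counts because the naming rule holds it. The samples were livers of male rats aged 18 weeks by the labels, with 18 RNA libraries in 6 groups of 3. The normal control was healthy and received water, and the obese control was obese and received water. Orlistat, a lipase inhibitor, was given to another obese group as positive control. Plantain was given to the last 3 obese groups in low, medium and high doses. The labels give neither the dose amounts nor the way obesity was induced, and nothing in them tells whether each library is its own animal. The p-values below therefore measure only the spread between libraries, which may be technical.

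The proteasome is the protease complex that degrades ubiquitin-tagged proteins in the cytosol and nucleus. Its barrel-shaped core particle has outer rings of alpha subunits and inner rings of beta subunits, and 3 of the beta subunits carry the active sites. A regulatory particle of ATPases and non-ATPase subunits binds, unfolds and feeds in substrates. In immune cells, and in hepatocytes exposed to interferon, the catalytic subunits PSMB5, PSMB6 and PSMB7 can be replaced by PSMB8, PSMB9 and PSMB10 in newly assembled cores. This immunoproteasome, often capped by the activator of PSME1 and PSME2, is known for cutting peptides for presentation on MHC class I.

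Reads recovered from the values numbered 16.6 to 26.2 M per library (M, reads in units of 1e6). Hepatocyte markers such as Alb and Apoa1 summed to between 63414 and 80641 FPKM (fragments per kilobase of gene and per unit of library depth) per library, over 7 markers. Fat cell markers (Adipoq, Plin1 and Lep) were each under 0.1 FPKM in all 18 libraries. Of the 44 genes, 41 reached 1 FPKM in at least 3 libraries and were tested. Values are FPKM, which are per length and so allow levels of different genes to be set side by side. Differences are log2 of FPKM + 1 with the standard error of 1 limma fit over all 18 libraries, and calls use limma p-values adjusted over 11945 genes at a threshold of 0.05.

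All 3 genes left untested were near 0. Psma8, the testis alpha subunit, did not exceed 0.11 FPKM in any library. Psmb11, the catalytic subunit of the thymus, was listed at 0 in 17 of 18 libraries. Psme1, a partner of Psme2 in the interferon-inducible activator, did not exceed 0.284 FPKM and rested on at most 6 reads, with 9 libraries listed at 0. On chromosome 15, Psme1 (34256071 to 34258947) shares 2574 of its 2877 bases with Emc9 on the opposite strand. No source used here says whether the counting used strand, so this value cannot be read as absence of Psme1 RNA. Coordinates are those of the deposited file, which names no build.

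The obese control differed from the normal control in most of the proteasome. Of 41 genes tested, 27 were higher and 3 lower by limma, where 26.7% of all genes tested were higher and 28.4% lower. The median log2 difference of the 41 genes was 0.18, against 0.00 over all genes. The group mean was highest in the obese control for 31 of the 41 genes, as it was for 24.8% of all genes. These shifts were mostly small, and the genes of the immunoproteasome and its activator stood at the top: Psmb9, Psmb10, Psme2 and Psmb8 had the 4 largest rises among genes whose groups did not overlap. In bulk liver, a different number of cells of one type and a different amount of RNA per cell cannot be told apart.

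**Figure D1:**
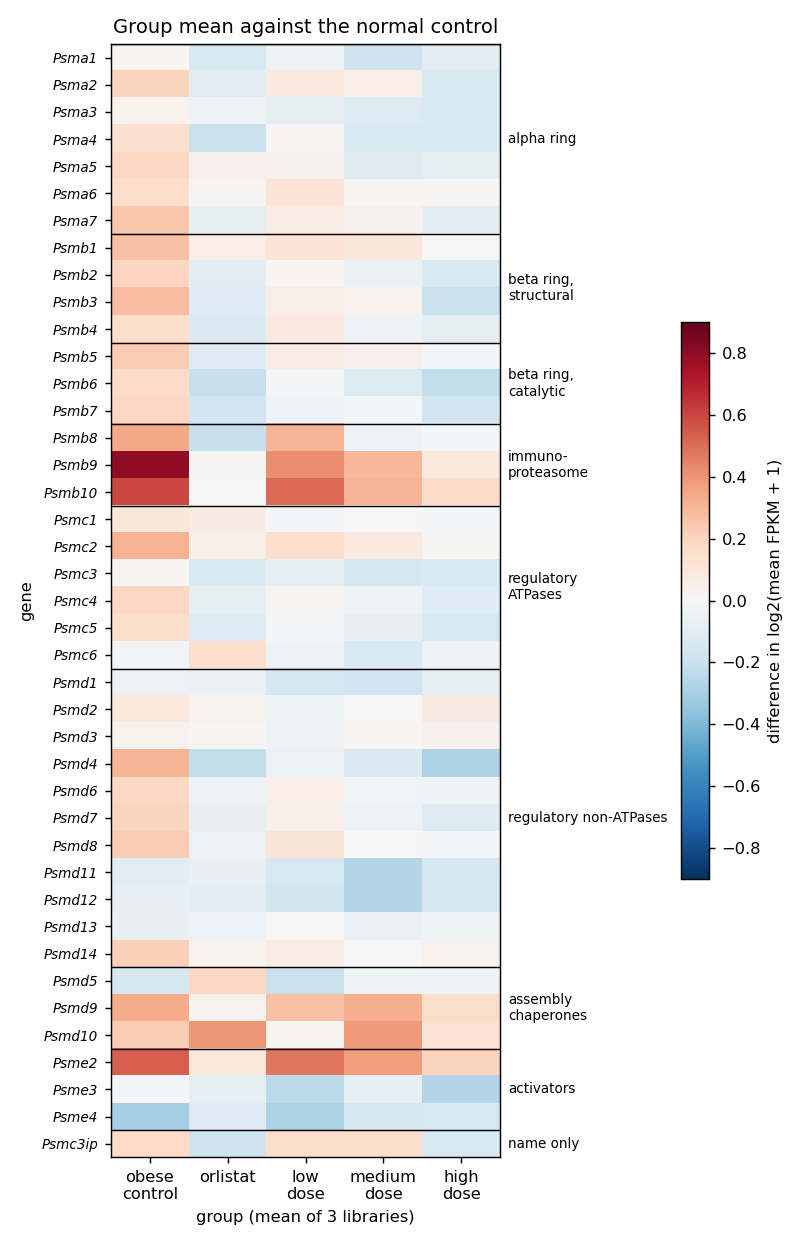
Difference of each group mean from the normal control in log2(mean FPKM + 1), by colour, for the 41 tested genes in rows, ordered by role, and the 5 obese groups in columns (each the mean of 3 libraries). Psmb9, Psmb10 and Psme2 are the most deeply red in the obese control and paler with orlistat and at the high dose, while Psme4 is blue in every column.

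The size of these counts depended on the scaling of the libraries. Rescaling each library to TPM (FPKM made to sum to the same total per library) gave 8 higher and 9 lower of the 41 genes in the obese control, against 16.5% and 38.3% of all genes. With TPM the all-gene median lay at -0.11, and relative to it the proteasome median was 0.17, beside the 0.18 before rescaling. TPM multiplies all genes of a library by 1 factor. Values relative to the all-gene median, here and below, therefore stay nearly unchanged by construction and are no check of the scaling. The difference was also tied to gene length: Spearman's rho between the log2 difference and length was -0.55 across the 41 genes, which share their libraries. The 20 genes shorter than 1500 bases had a median difference of 0.20 and the longer ones 0.03. Over all genes tested, the 3739 under 1500 bases also had a higher median than the others (0.115 and -0.04). With the trend on length removed from each library, 18 genes were higher and 3 lower, beside 3255 and 3089 of all 11945 genes tested. The median of the 41 genes was then 0.08, against 0.01 over all genes.

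**Figure D2:**
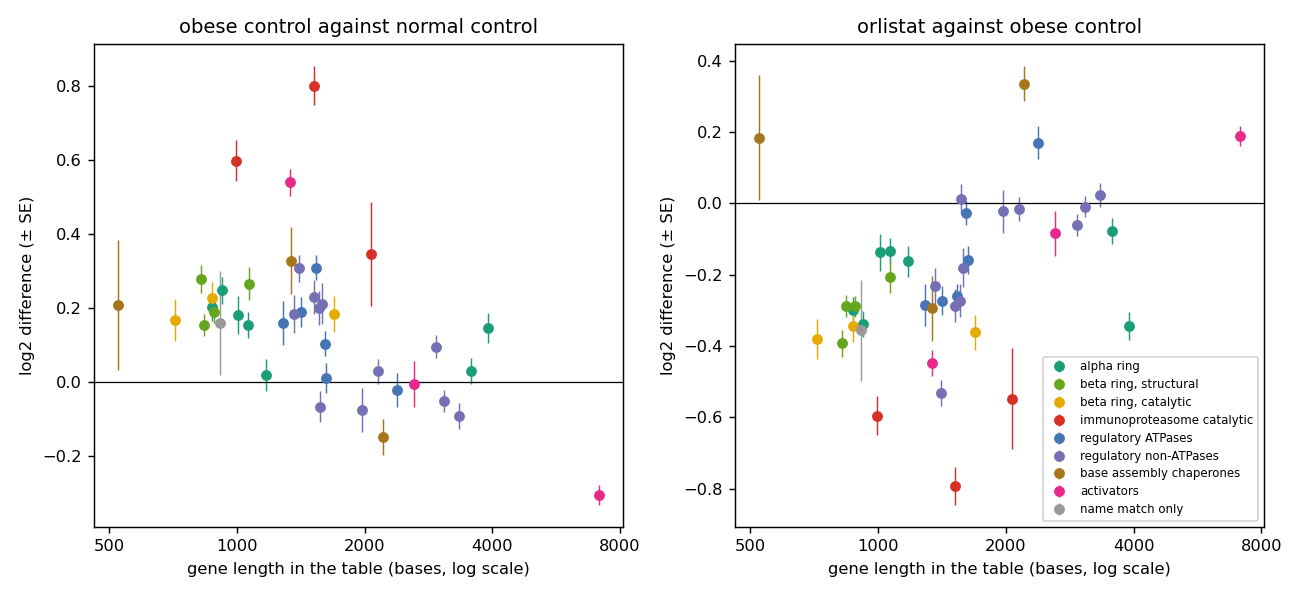
Log2 difference (± SE of the limma fit) of the 41 tested genes against gene length in bases on a log axis, for the obese control against the normal control (left) and orlistat against the obese control (right), coloured by role. Most short genes lie above 0 on the left and below 0 on the right, and Psmb9 has the highest value on the left (0.80) and the lowest on the right (-0.79).

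Psmb9 (chromosome 20, 3973420 to 3978845), which replaces Psmb6, was the member with the widest range between groups. Its FPKM were 10.7, 11.6 and 10.3 in the normal control and 19.8, 19.0 and 20.3 in the obese control. They were 10.6, 11.04 and 11.2 with orlistat, and 14.2, 15.01 and 15.4, then 12.6, 14.5 and 13.8, then 11.1, 11.6 and 12.1 at the low, medium and high dose. All obese control libraries lay above every library of the other 5 groups, and the high-dose libraries lay below the low-dose and medium-dose ones, which overlapped each other. The log2 difference of the obese control from the normal control was 0.80 ± 0.05 (limma adjusted p = 4.09e-09). Against the obese control, Psmb9 fell by 0.79 with orlistat, 0.38 at the low dose, 0.50 at the medium dose and 0.71 at the high dose, each ± 0.05 (limma adjusted p = 6.99e-09, 4.23e-05, 1.88e-06 and 2.43e-08). High dose against low dose was lower by 0.33 on the log2 scale (-0.33 ± 0.05, limma adjusted p = 0.000226). Each of these calls held in all 6 fits without 1 library and in all 7 other alternatives. Between 299 and 679 reads stood behind each value.

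Psmb10 (chromosome 19, 37909546 to 37912027), which replaces Psmb7, had the same order of group means as Psmb9. It was at 15.4, 14.5 and 15.3 FPKM in the normal control and 24.3, 22.4 and 23.2 in the obese control. With orlistat it was at 15.4, 13.6 and 16.4 FPKM. At the low, medium and high dose it was at 21.4, 21.3 and 23.0, at 19.4, 18.3 and 18.8, and at 16.4, 17.9 and 17.0 FPKM. The low-dose libraries overlapped those of the obese control, whereas the medium-dose, high-dose and orlistat libraries all lay below them. Psmb10 rose by 0.60 ± 0.06 in the obese control (limma adjusted p = 2.23e-07) and fell with orlistat (-0.59 ± 0.06, limma adjusted p = 3.1e-07). The low dose gave -0.09 ± 0.06 (limma adjusted p = 0.257), which did not pass. Psmb10 fell at the medium dose (-0.29 ± 0.06, limma adjusted p = 0.000556) and at the high dose (-0.42 ± 0.06, limma adjusted p = 1.22e-05). It was lower at the high than at the low dose (-0.34 ± 0.06, limma adjusted p = 0.000269).

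Psmb8 (chromosome 20, 3990613 to 3993769), which replaces Psmb5 and lies on the same chromosome as Psmb9, was the least even of these genes between libraries. Its FPKM were 17.3, 17.0 and 13.4 in the normal control, 20.2, 21.8 and 19.3 in the obese control and 14.3, 13.3 and 13.3 with orlistat. At the medium and high dose they were 14.9, 15.6 and 15.9, and 14.8, 14.4 and 18.2. The low dose gave 16.5, 26.5 and 16.8 FPKM, so 1 library stood above every other library of the study. Psmb8 fell with orlistat (-0.55 ± 0.14, limma adjusted p = 0.00433), a call that held without any 1 library and in the 7 other alternatives. The difference of the obese from the normal control was 0.35 ± 0.14 (limma adjusted p = 0.0499), and 1 of 6 fits without 1 library kept that call, with adjusted p from 0.0459 to 0.211. The falls at the medium and high dose (-0.38 and -0.36, each ± 0.14, limma adjusted p = 0.0423 and 0.0456) were kept by 0 and 1 of 6 such fits, at adjusted p from 0.0566 to 0.123 and from 0.0234 to 0.143. At the low dose the difference was -0.07 ± 0.14, and -0.28 (limma adjusted p = 0.0528) without the second low-dose library.

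**Figure D3:**
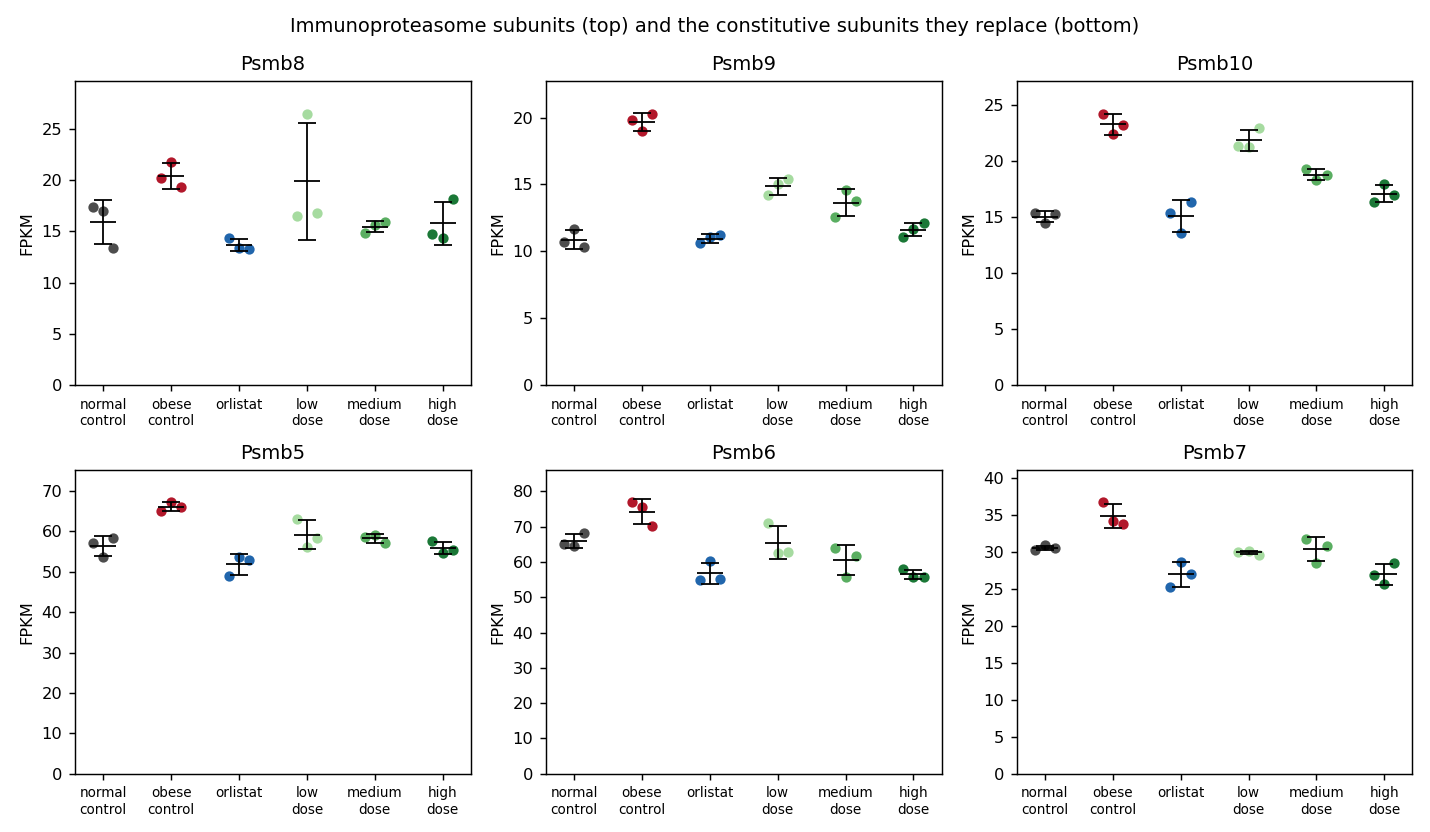
FPKM of Psmb8, Psmb9 and Psmb10 (top) and of Psmb5, Psmb6 and Psmb7, which they replace (bottom), with a point for each of the 3 libraries of the 6 groups, a horizontal bar for the mean and error bars for ± 1 SD; axes start at 0. The obese control has the highest mean in all 6 panels, and 1 low-dose library of Psmb8 lies at 26.5 FPKM.

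Psme2 (chromosome 15, 34265557 to 34269851), the other activator gene of the immunoproteasome, followed the order of groups seen for Psmb9 and Psmb10. It was at 30.5, 28.6 and 30.3 FPKM in the normal control, 43.3, 45.7 and 42.4 in the obese control and 30.9, 32.9 and 31.6 with orlistat. The low, medium and high dose gave 43.1, 41.2 and 41.1, then 38.1, 38.6 and 40.0, then 34.6, 35.1 and 33.1 FPKM. All libraries of the 5 obese groups lay above those of the normal control, and the high-dose libraries lay between orlistat and the medium dose without overlap. Psme2 rose in the obese control (0.54 ± 0.04, limma adjusted p = 4.59e-09) and fell with orlistat (-0.45 ± 0.04, limma adjusted p = 5.71e-08). The low dose did not pass (-0.07 ± 0.04, limma adjusted p = 0.189). Psme2 fell at the medium dose (-0.17 ± 0.04, limma adjusted p = 0.00169) and at the high dose (-0.34 ± 0.04, limma adjusted p = 1.2e-06). TPM scaling ended the medium-dose call (-0.08, adjusted p = 0.152), and the 6 other alternatives kept it.

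Promoter sequences from RefSeq (build GRCr8) were matched by symbol for 39 of the 44 genes; Psma7, Psmd6, Psmd12, Psmd14 and Psmb11 had no entry. The 250 bases before the start were searched on both strands for 4 motifs. GAAA followed by any 2 bases and a second GAAA, the core of the element bound by interferon regulatory factors, occurred in 5 of the 39 (Psma4, Psmb10, Psmb3, Psmd7 and Psme2) and in 3.41% of 33469 promoters of the same length. TTCNNNGAA, the form of the gamma interferon activated site, occurred in 4 (Psmb8, Psmc6, Psmd3 and Psmd7) and in 7.67% of all. TGACNNNGC, the core of the antioxidant response element bound by NFE2-like factors, occurred in 7 (Psma3, Psmb2, Psmb5, Psmb6, Psmd1, Psmd9 and Psme4) and in 10.1%. CCAAT occurred in 19 of 39 and in 34% of all. The motifs can share bases, and a match describes letters and not a bound site. Shown are the 120 bases before the start of 5 genes chosen by hand. Psmb10, Psme2 and Psmb9 had the same order of group means, though at the low dose only Psmb9 passed. Psmb5 and Psmb6 are the 2 constitutive catalytic genes whose promoters hold the antioxidant core. Psma4, Psmb3 and Psmd7, which also hold the interferon regulatory factor motif, are not shown. Capitals mark the interferon regulatory factor motif in Psmb10 and Psme2 and TGACNNNGC in Psmb5 and Psmb6, and the Psmb9 window holds none of the 4 motifs. They lie at chr19:50743293-50743412 (minus strand), chr15:33052752-33052871 (minus), chr20:4668880-4668999 (plus), chr15:32047380-32047499 (minus) and chr10:55737768-55737887 (plus).
Psmb10: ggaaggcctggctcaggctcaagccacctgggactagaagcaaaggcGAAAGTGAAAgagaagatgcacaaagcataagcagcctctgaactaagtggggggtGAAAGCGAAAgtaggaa
Psme2: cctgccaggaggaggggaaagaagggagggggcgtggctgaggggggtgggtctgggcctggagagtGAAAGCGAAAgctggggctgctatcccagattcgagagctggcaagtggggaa
Psmb9: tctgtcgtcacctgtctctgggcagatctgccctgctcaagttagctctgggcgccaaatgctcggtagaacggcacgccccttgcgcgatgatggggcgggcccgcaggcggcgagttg
Psmb5: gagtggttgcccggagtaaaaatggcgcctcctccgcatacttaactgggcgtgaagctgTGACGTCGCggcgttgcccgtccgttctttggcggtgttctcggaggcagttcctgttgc
Psmb6: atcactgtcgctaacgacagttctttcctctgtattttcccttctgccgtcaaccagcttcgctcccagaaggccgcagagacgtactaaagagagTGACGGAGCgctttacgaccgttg

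The constitutive catalytic genes rose in the obese control by less than the subunits that replace them, and all 3 fell in each treated group. At the low dose their falls (-0.16 to -0.21) passed, whereas Psmb10 (-0.09) and Psmb8 (-0.07) did not. Psmb5, the chymotrypsin-like subunit, was at 57.1, 53.6 and 58.3 FPKM in the normal control and 65.0, 67.2 and 66.03 in the obese control. It was at 48.9, 53.8 and 53.0 FPKM with orlistat, and between 54.7 and 63.1 FPKM in the 9 plantain libraries. All of these treated libraries lay below the obese control, and the log2 differences from it were -0.34 with orlistat and -0.16, -0.18 and -0.24 at the 3 doses in rising order. Psmb6, the caspase-like subunit, was at 65.2, 64.6 and 68.1 FPKM in the normal control, 76.9, 75.7 and 70.3 in the obese control, 55.0, 60.3 and 55.3 with orlistat and 58.0, 55.8 and 55.8 at the high dose. Its low-dose libraries (70.9, 62.6 and 62.9 FPKM) overlapped the obese control, and the orlistat and high-dose libraries lay below the normal control too. Psmb7, the trypsin-like subunit, rose by 0.18 ± 0.05 in the obese control and fell by 0.36 ± 0.05 both with orlistat and at the high dose. All 3 genes passed in the obese control and in each of the 4 treatments (limma adjusted p from 8.53e-06 to 0.0223). TPM scaling ended all 3 rises, the Psmb5 falls at the 3 doses and the Psmb7 fall at the medium dose, and it kept the falls with orlistat. For Psmb6 the rise of 0.17 in the obese control passed in 2 of 6 fits without 1 library and was 0.01 with the length trend removed, and its low-dose fall passed in 2 of 6. Psmb5 also lost its rise with the length trend removed (limma adjusted p = 0.12, where the 7 alternatives other than leaving out a library ran from 0.000413 to 0.12). Its medium-dose fall was kept in 4 of those 7 and its low-dose fall in 5.

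A ratio of 2 genes within a library does not depend on how that library was scaled. The trend on gene length does not cancel in it, because the paired genes differ in length. Psmb9 and Psmb6 have 1520 and 717 bases, Psmb10 and Psmb7 996 and 1696, and Psmb8 and Psmb5 2066 and 873. Psmb9 over Psmb6 was 0.165 ± 0.014 in the normal control and 0.266 ± 0.020 among obese control libraries (means ± SD of 3 libraries). It was 0.193 ± 0.010 with orlistat, 0.228 ± 0.025 at the low dose, 0.227 ± 0.032 at the medium dose and 0.206 ± 0.013 at the high dose. The obese control lay above the normal, orlistat, low-dose and high-dose libraries without overlap, and overlapped the medium dose. Psmb10 over Psmb7 was 0.493 ± 0.021 in the normal control, 0.669 ± 0.018 in the obese control and 0.565 ± 0.077 with orlistat. It was 0.732 ± 0.037 at the low dose, above every obese control library, and 0.621 ± 0.017 and 0.636 ± 0.055 at the medium and high dose. At the low dose Psmb7 fell (-0.21 ± 0.05), and the Psmb10 libraries overlapped the obese control. Psmb8 over Psmb5 ran from 0.264 ± 0.025 with orlistat to 0.340 ± 0.115 at the low dose, where the second library was at 0.472, and the obese control (0.309 ± 0.016) overlapped the normal control (0.284 ± 0.047). In the exact two-sided permutation test the smallest p that 3 against 3 libraries allow is 0.1, which 10 of 18 ratio comparisons reached (adjusted p = 0.18), so no ratio could pass by this test.

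**Figure D4:**
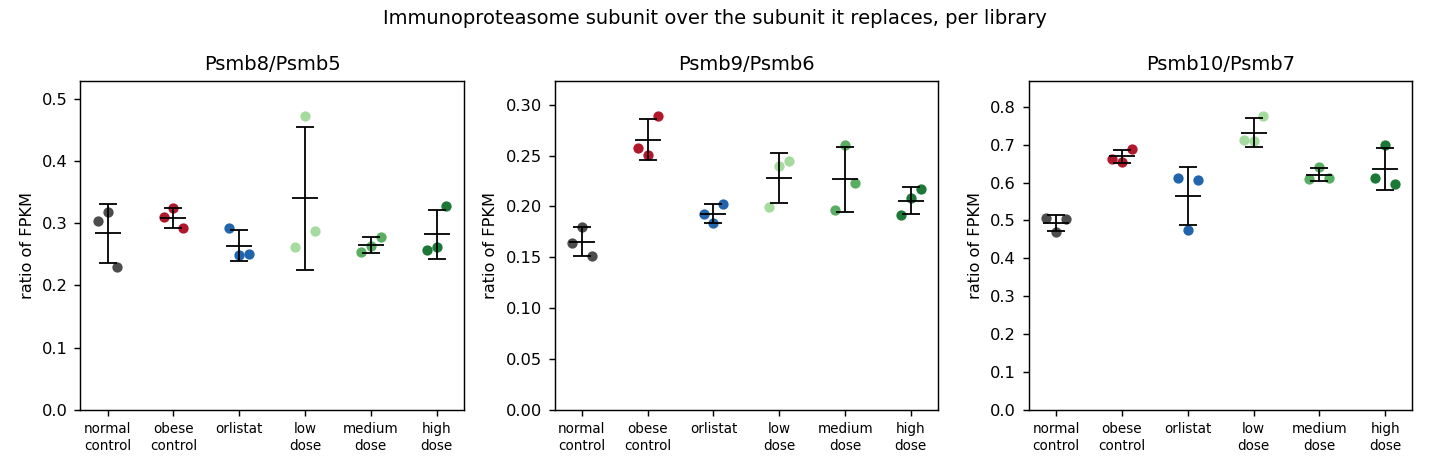
Ratio of FPKM of each immunoproteasome subunit to the subunit it replaces, with a point per library, a bar for the mean and error bars for ± 1 SD of 3 libraries in 6 groups; axes start at 0. The Psmb9/Psmb6 ratio is 0.266 in the obese control against 0.165 in the normal control, and the highest mean of Psmb10/Psmb7 is that of the low dose at 0.732.

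Counts by role in the obese control are to be read beside the 26.7% of all genes tested that were higher and the 28.4% that were lower. Among the alpha subunits, which form the gate of the core, 5 of 7 tested rose and the other two, Psma1 and Psma3, did not pass (0.02 and 0.03). Psma5, a ring subunit, was at 34.9, 38.7 and 35.7 FPKM in the normal control, 40.3, 44.7 and 39.3 in the obese control and 34.6, 32.0 and 34.2 at the medium dose. Its medium-dose fall was -0.29 ± 0.05 (limma adjusted p = 0.000284). The structural beta subunits Psmb1 to Psmb4 rose in 4 of 4 cases. Psmb4, the most abundant member, ran from 104 to 133 FPKM over the 18 libraries. Psmb3 was at 64.0, 67.8 and 65.8 FPKM in the normal control, 81.4, 78.0 and 80.9 in the obese control and 59.6, 58.2 and 53.6 at the high dose. It rose by 0.28 ± 0.04 in the obese control and fell at the high dose (-0.48 ± 0.04, limma adjusted p = 3.38e-08), to below the normal control libraries.

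In the regulatory particle, 4 of 6 ATPases rose in the obese control (26.7% of all genes were higher and 28.4% lower), led by Psmc2 (0.31 ± 0.03, limma adjusted p = 1.11e-06), whose FPKM went from 31.1, 32.3 and 30.7 to 39.5, 39.9 and 38.0. Psmc6, another ATPase, was at 25.8, 25.4 and 24.8 FPKM in the obese control and rose with orlistat to 29.5, 29.6 and 26.8 (0.17 ± 0.05, limma adjusted p = 0.00647). Among 11 non-ATPases, 6 rose and 1, the lid subunit Psmd11, fell (-0.09 ± 0.03, limma adjusted p = 0.0323). The Psmd11 call was kept in 2 of 6 fits without 1 library (adjusted p up to 0.149) and in 5 of 7 other alternatives. Psmd4, the subunit that binds ubiquitin chains, had the widest range of the regulatory particle. It was at 36.6, 35.4 and 35.4 FPKM in the normal control, 44.8, 42.7 and 46.3 in the obese control, 30.1, 31.6 and 29.9 with orlistat and 28.4, 29.2 and 30.1 at the high dose. The low and medium dose gave 34.5, 33.5 and 35.5, and 34.1, 31.9 and 32.0 FPKM. Every treated library lay below every obese control library, and the orlistat, medium-dose and high-dose libraries lay below the normal control as well. Its differences from the obese control were -0.53, -0.36, -0.44 and -0.59 with orlistat and at the low, medium and high dose, each ± 0.04 (limma adjusted p = 9.27e-09, 1.75e-06, 1.33e-07 and 2.72e-09). At the other end, Psmd3 and Psmd13 had a highest group mean only 1.05 times the lowest.

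Psme4 and Psmd5 went the other way. Psme4, which encodes a large nuclear activator, was at 22.5, 22.8 and 22.2 FPKM in the normal control and 18.1, 17.8 and 18.1 in the obese control. It was at 20.5, 21.0 and 20.4 FPKM with orlistat, and at 18.6, 18.5 and 17.8, then 20.8, 19.97 and 19.6, then 20.5, 19.9 and 20.3 at the low, medium and high dose. All normal control libraries lay above all others, and the orlistat, medium-dose and high-dose libraries lay above the obese control. Psme4 fell in the obese control (-0.30 ± 0.03, limma adjusted p = 1.31e-07) and rose with orlistat, at the medium dose and at the high dose (0.19, 0.15 and 0.16, each ± 0.03, limma adjusted p = 3.06e-05, 0.000317 and 0.000141). The low dose gave 0.02 ± 0.03 (limma adjusted p = 0.612). At 7130 bases Psme4 is the longest member, and removing the length trend ended its 3 rises but not its fall. Psmd5, a chaperone of base assembly, was at 15.6, 14.01 and 14.9 FPKM in the normal control, 12.4, 13.5 and 14.01 in the obese control and 16.3, 17.6 and 17.1 with orlistat. It fell in the obese control (-0.15 ± 0.05, limma adjusted p = 0.019; 4 of 6 fits without 1 library kept the call) and rose with orlistat (0.34 ± 0.05, limma adjusted p = 3.92e-05). Psme3, which encodes another nuclear activator, did not differ beyond the threshold between the controls, and it fell at the low and the high dose (-0.24 and -0.26, each ± 0.06, limma adjusted p = 0.00791 and 0.00259). TPM scaling ended the high-dose call of Psme3 (-0.11, limma adjusted p = 0.188). Psme3 shares 7784 of its 7786 bases with another annotated gene on the same strand, so its level is uncertain.

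The 4 treatments were each set against the same 3 obese control libraries, so their results are not independent of one another. With orlistat 28 of the 41 genes were lower and 3 higher (25.6% and 26.2% of all genes), with a median of -0.26. The lower ones included 6 of 7 alpha subunits, all 7 constitutive beta subunits tested, all 3 immunoproteasome subunits and 4 of 6 ATPases, but 5 of 11 non-ATPases. The 3 that rose were Psmd5, Psme4 and Psmc6. Under TPM 16 were lower and 11 higher (13.1% and 41.8% of all), and relative to the median of all genes, which moved by 0.14, the proteasome median was -0.24. These differences too were tied to gene length (Spearman's rho 0.48). The 20 genes under 1500 bases had a median of -0.29 and the longer ones -0.08, beside -0.14 and 0.04 over all genes. With the length trend removed 23 were lower and 2 higher (2913 and 2868 of all genes tested), at a median of -0.15. Limma-voom gave 21 lower and 5 higher (2137 and 4095).

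Against the obese control, more proteasome genes were called lower at the medium and high dose than at the low dose. The size of this contrast depended on the method. Limma-voom on recovered reads gave 21, 25 and 23 lower at the low, medium and high dose, beside 1741, 1812 and 2124 of all genes tested. At the low dose 21 of 41 genes were lower and 0 higher by limma (14.8% and 18.3% of all genes), with a median of -0.12 and with 0 higher at an unadjusted p under 0.05 or by limma-voom on recovered reads. Under TPM 10 were lower (10.9% of all, with 22.4% higher) and the median relative to all genes was -0.13. Without the third low-dose library 13 were lower. The 5 largest falls whose groups did not overlap were those of Psmb9, Psmd4, Psme3, Psmb3 and Psmb7. At the medium dose 32 were lower and 1, Psme4, higher (20.1% and 21.8% of all), with a median of -0.19. Under TPM these were 16 and 2 (12.1% and 31.4% of all), at a relative median of -0.18. At the high dose 29 were lower and 1, again Psme4, higher (25.3% and 26.6% of all), with a median of -0.25. Under TPM they were 15 and 8 (12.4% and 43.3% of all), at a relative median of -0.23. With the length trend removed, 19, 28 and 29 were lower and 0 higher at the low, medium and high dose. The medians were then -0.12, -0.16 and -0.17. Of all genes tested, 1844, 2421 and 2912 were then lower and 2028, 2374 and 2913 higher. All 7 alpha, all 7 constitutive beta and all 3 immunoproteasome subunits tested fell at the medium and at the high dose, and 9 and 5 of 11 non-ATPases.

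High dose against low dose tests the difference between doses directly and does not use the obese control. It gave 18 of 41 genes lower and 3 higher (16.4% and 16.2% of all genes), with a median of -0.13. Among genes that passed and whose groups did not overlap, Psmb10, Psmb9, Psme2, Psmb3 and Psmd4 had the 5 largest falls, from -0.34 to -0.23. Psmd5, Psme4 and Psmd2 (0.16, 0.14 and 0.12) rose. The Psmd5 call was kept in 3 of 6 fits without 1 library (limma adjusted p up to 0.0976), and removing the length trend ended that of Psme4 (0.05, limma adjusted p = 0.257). Psmd2 is a scaffold subunit of the regulatory base. Without the first low-dose library 10 genes were lower. Quantile normalization, limma-voom and removal of the length trend gave 9, 8 and 8 lower (1610, 1132 and 1725 of all genes tested). They gave 5, 5 and 2 higher (2111, 2986 and 1705 of all genes tested). The proteasome medians were then -0.06, -0.05 and -0.05, beside all-gene medians of 0.00, 0.06 and -0.01. TPM scaling gave 5 lower and 9 higher (6.92% and 33.5% of all), with the proteasome median at 0.01 and, relative to all genes, at -0.10. The falls of Psmb9, Psmb10, Psme2, Psmb3 and Psmd4 held under TPM.

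Where the treated groups ended up relative to the normal control was read from library values only. With orlistat, 5 of 41 genes lay above all normal libraries and 13 below (25.1% and 30% of all genes tested). At the low, medium and high dose, 11, 7 and 3 lay above (27.4%, 25% and 24.6% of all) and 10, 12 and 19 below (30.2%, 28.3% and 28.8%). Psme2 lay above the normal control in all 4 treated groups, Psmb10 at all 3 doses and Psmb9 at the low and medium dose. Psme4 lay below it in all 4.

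Genes that act on the proteasome were counted from lists, whose counts in the obese control stand beside 26.7% of all genes higher, 28.4% lower and an all-gene median of 0.00. Among 6 assembly genes found in the table (median 0.36), 3 rose in the obese control, the chaperones Psmg4, Psmg1 and Psmg3 (0.40, 0.32 and 0.50), and Ecpas, a proteasome adaptor, fell. With orlistat Psmg4, Psmg1 and Psmg3 fell (-0.45, -0.26 and -0.43), and TPM scaling ended the fall of Psmg1. The maturation factor Pomp is uncertain, because a gene the file describes as proteasome maturation protein-like averaged 55.3 FPKM and Pomp itself 2.06, and how reads were split between them is not known. Of 10 regulators, 3 rose and 4 fell in the obese control, shares near those of all genes. The proteasome inhibitor Psmf1 rose by 0.29 ± 0.04 and fell with orlistat, at the medium dose and at the high dose (-0.39, -0.25 and -0.35). Sem1, a small lid subunit outside the naming rule, rose by 0.47, and the ubiquitin receptor Adrm1 fell with orlistat by 0.40. Of 4 ubiquitin supply genes found once in the table, 1 rose and 1 fell in the obese control.

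Of 5 genes for transcriptional control (median -0.12), 3 fell in the obese control, where 28.4% of all genes fell. Nfe2l1 encodes the factor that induces proteasome genes when proteasome activity is low. Its mean was 18.9 FPKM in the normal control, 13.98 in the obese control, 20.75 with orlistat and 19.1, 17.5 and 20.4 at the low, medium and high dose. It was lower in the obese control (-0.41, limma adjusted p = 1.05e-08) and higher in each treated group than there (0.54, 0.42, 0.30 and 0.52, limma adjusted p from 6.85e-10 to 7.25e-07). TPM kept all 5 directions and calls, but it moved the median of all genes the same way and so could not shrink these differences. That median was at -0.11 in the obese control and at 0.14, 0.05, 0.08 and 0.15 in the treated groups. Values with the length trend removed are not given for Nfe2l1. Most subunits had the opposite signs in these comparisons. Ddi2, the protease that activates the Nfe2l1 product, fell in the obese control by 0.34. The related factor Nfe2l2 did not pass there (-0.02) and rose at the 3 doses (0.25, 0.24 and 0.19) but fell with orlistat by 0.14, a fall that TPM scaling ended.

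Of 9 genes for antigen processing and interferon signalling (median 0.17), 4 rose and 3 fell in the obese control, where 26.7% and 28.4% of all genes did. Irf1, an interferon-induced transcription factor, went from a mean of 4.62 to 8.68 FPKM (0.79, limma adjusted p = 4.96e-06). It fell with orlistat, at the medium dose and at the high dose (-0.62, -0.40 and -0.64), and the low dose did not pass (-0.24, limma adjusted p = 0.0725). These calls held under TPM. B2m, the light chain of MHC class I, rose by 0.17 and fell with orlistat by 0.18, and TPM scaling ended the fall. Erap1, which trims peptides, fell by 0.14 in the obese control and rose with orlistat by 0.27.

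Markers of hepatocytes and of other cells moved with some of these comparisons. Their counts in the obese control stand beside 26.7% of all genes higher. Against the obese control, 26.2%, 18.3%, 21.8% and 26.6% of all genes were higher with orlistat and at the low, medium and high dose. In the same order, 25.6%, 14.8%, 20.1% and 25.3% were lower. The 10 Kupffer cell and macrophage markers summed to 182 to 184 FPKM in the normal control, 307 to 317 in the obese control, 320 to 340 with orlistat, 389 to 401 at the low dose, 254 to 261 at the medium dose and 259 to 262 at the high dose, and 10 of 10 rose in the obese control. With orlistat, 2 rose and 1 fell, and at the low dose 9 rose. Under TPM 6 rose and 0 fell with orlistat (41.8% and 13.1% of all genes). At the medium and high dose 9 of 10 markers fell beside the immunoproteasome genes. Under TPM 7 and 5 of them fell (12.1% and 12.4% of all genes), and 0 and 1 rose (31.4% and 43.3%). The 8 lymphocyte markers in the table summed to 10.7 to 11.2, 12.3 to 14.4, 12.1 to 15.2, 15.3 to 16.7, 11.8 to 12.3 and 11.8 to 13.7 FPKM in the same order of groups, and 2 of 4 tested rose in the obese control. The 6 neutrophil markers summed to 4.62 to 5.57 FPKM in the normal control, 10.51 to 11.03 in the obese control, 5.95 to 8.85 with orlistat, 13.2 to 14.1, 10.95 to 11.8 and 11.2 to 11.9 at the 3 doses, with Mpo under 0.1 in every library. The 3 red blood cell markers summed to 196 to 209 FPKM in the normal control, 362 to 436 in the obese control and 246 to 377 in the treated groups, and 2 of 3 rose in the obese control. The 5 sinusoidal endothelium markers found summed to 40.6 to 41.0, 54.0 to 56.1, 79.4 to 80.5, 75.5 to 77.3, 77.8 to 79.0 and 90.6 to 91.2 FPKM from the normal control to the high dose, and 4 of 5 rose in each treated group. The 6 stellate cell markers summed to 47.3 to 48.1, 54.3 to 56.5, 62.0 to 64.0, 44.5 to 47.2, 46.1 to 48.6 and 51.8 to 53.9 FPKM in the same order. The 7 hepatocyte markers summed to 69605 to 74481, 78193 to 80641, 63414 to 68634, 71525 to 75660, 71063 to 75610 and 70304 to 70491 FPKM in that order. Of these 7, 2 rose and 4 fell in the obese control, where 28.4% of all genes fell, and 4 rose and 3 fell with orlistat. The part of any of these marker differences, including the macrophage rise in the obese control, in the proteasome results was not tested.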

How the data were processed

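Per the labels' protocols, liver was flash-frozen and 1 µg of RNA per sample went into an Illumina library kit. CASAVA 1.7 and Bowtie 0.12.2 are named, per the submitters' processing notes, with the mouse build mm8, although the gene identifiers are of the rat. No source used here gives the rat build, the counting tool or its strand setting. The authors deposited 1 table of FPKM per gene and library, with length, position, type and symbol per the file headers. FPKM times length was a whole multiple of the same step for 100% of genes (tolerance 0.001), which recovered the reads. The authors' scaling total was 0.966 to 1.047 times the recovered total and differed by group (0.974 in the obese control and 1.036 with orlistat), so scaling and group cannot be told apart.

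Log2(FPKM + 1) of the 11945 genes reaching 1 FPKM in 3 or more libraries was fitted with limma 3.58.1 (R 4.3.3, mean-variance trend, 6 groups in 1 fit, 6 two-sided comparisons, Benjamini-Hochberg threshold 0.05) and tested on simulated data. Ratios used exact permutation tests. Alternatives were a pseudocount of 0.1, no filter, TPM, quantile normalization, limma-voom on recovered reads, leaving out each library, the replicate number as a block and, added after the data were seen, removal of the length trend (lowess span 0.3). Replicates differed by more than counting noise in all 18 pairs within groups, but not by much. The median chi-square per gene was 0.67 to 1.07 within groups, against 0.455 for counting noise alone. Between groups it was 1.19 to 4.825 over 135 pairs. This does not tell whether the libraries are separate animals. The members, gene lists and tests were chosen with earlier results of these data known. Named were the 6 exchangeable catalytic genes, Psme1, Psme2, up to 5 rises and 5 falls per comparison past the threshold without overlap, and up to 3 genes per related list by smallest p, of which some are not reported here. Psma1, Psma3, Psma8, Psmb4, Psmb11, Psmc3ip, Psmd3, Psmd13 and Ecpas were singled out after their values were seen.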

Additional observations from a re-analysis of the deposited data

How the results depend on the processing

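The pseudocount of 0.1 changed no call of the 102 values of named genes, and 559 of 612 values without 1 library kept direction and call. TPM scaling moved most counts. Genes higher and lower became 8 and 9 in the obese control, 11 and 16 with orlistat, 2 and 16 at the medium dose, 8 and 15 at the high dose and 9 and 5 for high against low dose, and 10 were lower at the low dose. TPM also reversed Psmd2 (-0.025 in the obese control, 0.10 with orlistat, 0.16 at the high dose), Psma5 with orlistat (0.029), Psmc6 (0.14 at the high dose, 0.13 for high against low dose) and Psmd11 (0.11 and 0.12 in the same comparisons). Relative to the TPM median of all genes, which nearly undoes the rescaling, Psmd2 was at 0.08, -0.04 and 0.01 and Psma5 at -0.11. On that scale Psmc6 was at -0.01 and 0.01, and Psmd11 at -0.05 and 0.01. Quantile normalization gave 1 lower in the obese control, and 5 higher and 9 lower for high against low dose. Limma-voom on recovered reads gave 5 lower in the obese control, 5, 2 and 3 higher with orlistat, at the medium and at the high dose, and 5 higher and 8 lower for high against low dose. With the length trend removed, 0 were higher at the medium and high dose and 8 lower for high against low dose. Leaving out 1 library gave 1 to 3 lower in the obese control (1 without the first library of either control), 13 to 21 lower at the low dose, 1 to 2 higher at the medium and at the high dose (2 without the third obese control library), and 10 to 18 lower for high against low dose. Without 1 library an arm held 2 samples, whose spread the fit pools with the other groups.

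Libraries with the same replicate number did not deviate together (45 correlations from -0.0925 to 0.0663, none over 0.1; 4 of 18 libraries correlated best with their own number), so the numbers were not used as pairs. With the replicate block, higher and lower counts were 26 and 3, 3 and 26, 0 and 21, 1 and 33, 1 and 29, and 3 and 18 in the order of comparisons of the report, and it changed 4 calls of named genes. TPM moved the median of all genes to between -0.11 and 0.15 by comparison, so small differences depend on the scaling. Psmd10 (7 to 22 reads per library) and Psmc3ip (24 to 57) are limited by depth.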
